A study of Homo sapiens with 6 samples.

Results

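The metallothioneins are small proteins, rich in cysteine, that bind zinc, copper and cadmium. The genes described here are MT1A, MT1E, MT1F, MT1G, MT1M, MT1X and MT2A, taken by name, and all 7 were among the 37887 rows of the count table. They were measured by RNA-seq in BT-549 cells, an established triple-negative breast cancer (TNBC) cell line with a mesenchymal phenotype. The table holds 3 libraries of control cells (shCTL) and 3 libraries of cells silenced for PBRM1 (shPBRM1). PBRM1 is a subunit with bromodomains of PBAF, a chromatin remodeling complex of the SWI/SNF family, and the comparison asks what its loss does to gene expression in these cells. The sample titles call the control libraries control shRNA. The treatment labels give DMSO for the 3 shCTL libraries and DOX for the 3 shPBRM1 libraries, and the study's design gives 0.1% DMSO as the vehicle and 500 ng/ml DOX to switch on an inducible shRNA. The DOX itself and the loss of PBRM1 therefore cannot be told apart. The length of treatment of these libraries was not given in the sources used here. Each library came from 1 of 3 cultures of a group. Whether these were independent experiments is not stated, so that p-values measure the spread between these samples, which may be technical.

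Metallothionein genes are known for their rapid induction. Zinc and cadmium act through MTF1, a zinc-sensing transcription factor that binds metal response elements in the promoters of these genes, and glucocorticoids and oxidative stress induce several of the genes as well. MT2A and the MT1 genes are expressed in many tissues. MT3 is known mainly from brain and MT4 from stratified epithelia.

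In the GENCODE v29 annotation of GRCh38, the 7 genes lie within 76.0 kb of chromosome 16, at chr16:56608199-56684196. MT2A begins the cluster at chr16:56608199-56609497 on the plus strand. MT1E starts 17.3 kb further on at chr16:56625475-56627112. MT1M comes next at chr16:56632233-56633986, followed by MT1A at chr16:56638666-56640087 and MT1F at chr16:56657694-56660698. MT1G at chr16:56666731-56668065 is the only one of the 7 on the minus strand. MT1X closes the cluster at chr16:56682424-56684196, 74.2 kb from MT2A. The main transcript of each gene has 3 exons. The coding sequences are near copies of each other. That of MT2A has 183 bases and 61 codons, of which 20 encode cysteine, and MT1X and MT1E each differ from it at 14 bases, an identity of 92.3%. Between pairs of the 6 members of this length, identity ranged from 88.5% to 94.5%, while MT1G has 186 bases. The coding sequences of the 3 genes that carried nearly all of the counts are shown, since they show how alike the sequences are that the reads had to tell apart. They were read from the GENCODE transcripts, 5′ to 3′. Capitals mark the cysteine codons in MT2A and the bases that differ from MT2A in MT1X and MT1E.
MT2A: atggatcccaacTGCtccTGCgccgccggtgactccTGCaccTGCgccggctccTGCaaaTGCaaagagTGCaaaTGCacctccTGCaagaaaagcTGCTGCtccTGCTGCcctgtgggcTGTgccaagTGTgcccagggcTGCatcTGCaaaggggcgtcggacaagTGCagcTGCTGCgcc
MT1X: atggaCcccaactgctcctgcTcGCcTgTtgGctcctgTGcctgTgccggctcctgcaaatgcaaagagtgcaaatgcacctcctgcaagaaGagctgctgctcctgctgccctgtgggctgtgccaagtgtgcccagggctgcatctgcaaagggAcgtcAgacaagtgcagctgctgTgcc
MT1E: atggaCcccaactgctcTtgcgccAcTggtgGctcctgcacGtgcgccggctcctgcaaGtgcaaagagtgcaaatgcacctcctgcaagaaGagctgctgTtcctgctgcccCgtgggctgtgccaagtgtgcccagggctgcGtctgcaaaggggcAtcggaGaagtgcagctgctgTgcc

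The exons differ more outside the coding part. Of all stretches of 50 bases in the main transcript, 95.1% in MT2A and 94.7% in MT1E occurred in no other annotated gene. In MT1X the share was 54.9%. For stretches of 100 bases the share was 100% in MT2A and MT1E and 80.9% in MT1X. MT1X also overlaps AC026461.1, a processed transcript on the same strand, over 1727 bases, and that transcript is not a row of the count table. How reads that match several genes were counted, and whether strand was used, is not given in the sources used here. The values of single genes, and of MT1X most, are therefore uncertain. Summing the family guards against reads that move between its members. It does not guard against reads of AC026461.1, which is among the genes that share stretches with MT1X. Such reads, if counted for MT1X, would enter the family sum too.

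Of the 7 genes, the RefSeq promoter table (GRCh38.p14) has MT2A and MT1X. The 250 bases before the start were searched on both strands for the metal response element core, spelled TGCACNC or TGCGCNC. MT2A had 7 matches and MT1X had 4. Among 35116 promoters of this length, 24.8% had at least 1 match, 0.37% had at least 4 and 0.0313% had at least 7. The stretch with all 4 matches of MT1X is shown, at chr16:56682220-56682423 on the plus strand, with the matches in capitals. For MT2A a stretch with 2 of its matches is shown, at chr16:56608416-56608437, since the GENCODE annotation places this window in the first exon of an MT2A transcript.
MT1X: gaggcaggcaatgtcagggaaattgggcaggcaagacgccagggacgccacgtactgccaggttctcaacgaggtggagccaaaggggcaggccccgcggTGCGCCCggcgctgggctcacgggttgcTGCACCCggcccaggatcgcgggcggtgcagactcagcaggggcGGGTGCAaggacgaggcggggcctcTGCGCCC
MT2A: GTGTGCAgagccgggTGCGCCC
Both windows had 1 TATAAA match (10.7% of all promoters had one) and 1 match to the antioxidant response element TGACNNNGC (10.9%). Neither held AGAACA, the glucocorticoid response element half-site (12.4%), or GAAANNGAA, the interferon response element core (6.88%). These are matches of letters in a window and not sites of binding.

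The libraries held between 36429395 and 65096297 counts. Levels are in CPM, counts divided by TMM-normalized library sizes. A floor of 3 counts, which allows for counting error only, is 0.0471 to 0.0804 CPM. PBRM1 itself was at 26.5% of its shCTL level in shPBRM1 cells (log2 fold change -1.91, adjusted p = 9.98e-23 in the edgeR fit), and overlaps GNL3 and SMIM4 in the annotation. Across the 15450 genes that passed edgeR's filter on low counts, the median log2 fold change was -0.0080. The 5 markers of a mesenchymal TNBC line (VIM, ZEB1, CDH2, CD44 and FN1) were all tested, and they went in opposite directions. VIM, CDH2 and CD44 were higher in shPBRM1 cells (log2 fold changes 0.31, 0.54 and 0.47). ZEB1 was lower (-0.55), and FN1 was lower by over 2-fold, at 554 CPM in shCTL and 221 CPM in shPBRM1. Their summed level, of which CD44 held the most, was between 3140 and 3227 CPM in shCTL and between 3603 and 3663 CPM in shPBRM1 libraries. ESR1 and PGR did not pass the filter, and ERBB2 was at 51.3 CPM in shCTL and 50.02 CPM in shPBRM1 cells. The 2 epithelial markers, CDH1 and EPCAM, summed to between 4.67 and 5.37 CPM in shCTL and between 1.27 and 1.97 CPM in shPBRM1 libraries, and CDH1 alone passed the filter. The 5 markers of other cell types (PTPRC, CD3E, PECAM1, ALB and INS) summed to between 0.697 and 1.49 CPM in shCTL and between 0.188 and 0.334 CPM in shPBRM1, with CD3E and INS at 0 in all 6 libraries and PTPRC alone tested. The part of these marker differences in the results was not tested.

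MT1E and MT1X were lower in shPBRM1 than in shCTL cells by over 2-fold, and MT2A was lower by a small amount. The other 4 genes were too low to be tested. Calls were made with edgeR's quasi-likelihood F-test at an adjusted p under 0.05, with or without a minimum fold change of 2. With this minimum, 9.68% of all tested genes were called lower and 2.87% higher, against 2 and 0 of the 3 tested metallothioneins. Without it, 64.7% of all tested genes were called and 33.2% were lower, against 3 of 3 metallothioneins, all lower. In both counts 0 were higher, as with DESeq2 and at an unadjusted p under 0.05.

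MT2A, the most abundant metallothionein in these cells, was counted 6298, 8867 and 8875 times in shCTL and 8648, 6065 and 9630 times in shPBRM1 libraries. These correspond to 169, 182 and 176 CPM in shCTL and 144, 156 and 151 CPM in shPBRM1. The groups did not overlap, yet the highest shPBRM1 library was close to the lowest shCTL library. The mean level of 176 ± 6.84 CPM in shCTL compared with 150.3 ± 5.93 CPM in shPBRM1 (SD, n = 3 each), or 85.6% of control. Its log2 fold change was -0.23 with a standard error of 0.046 (adjusted p = 2.31e-05, edgeR's quasi-likelihood test). Groups without overlap were seen for 68.3% of the tested genes, and 5248 of 15450 had a lower log2 fold change than MT2A.

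MT1X had raw counts of 1449, 1855 and 1979 in shCTL and 853, 555 and 870 in shPBRM1. Its levels were 38.8, 38.2 and 39.2 CPM in shCTL libraries, against 14.2, 14.3 and 13.6 CPM with PBRM1 silenced. The libraries of each group lay close together, with a wide gap between the groups. The means were 38.7 ± 0.545 CPM in shCTL and 14.0 ± 0.339 CPM in shPBRM1 (SD, n = 3 each), a 2.76-fold lower level. The log2 fold change was -1.47 with a standard error of 0.023 (adjusted p = 3.02e-16, edgeR's quasi-likelihood test), and 916 tested genes had a lower one.

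MT1E showed the largest fold change of the 3 tested genes. Raw counts of MT1E were 369, 421 and 403 in shCTL and 40, 21 and 52 in shPBRM1 libraries. On the CPM scale these were 9.89, 8.66 and 7.99 in shCTL and 0.666, 0.540 and 0.816 in shPBRM1. Every shPBRM1 library was below a level of 1 CPM and every shCTL library well above it, although all were above the floor. The mean fell from 8.85 ± 0.961 to 0.674 ± 0.138 CPM (SD, n = 3 each), which is 13.1-fold lower and 7.62% of control. The log2 fold change was -3.67 with a standard error of 0.19 (adjusted p = 7.62e-16, edgeR's quasi-likelihood test). Only 160 of the 15450 tested genes had a lower log2 fold change. These are bulk samples, in which fewer cells that express a gene and less RNA per cell cannot be told apart.

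**Figure D1:**
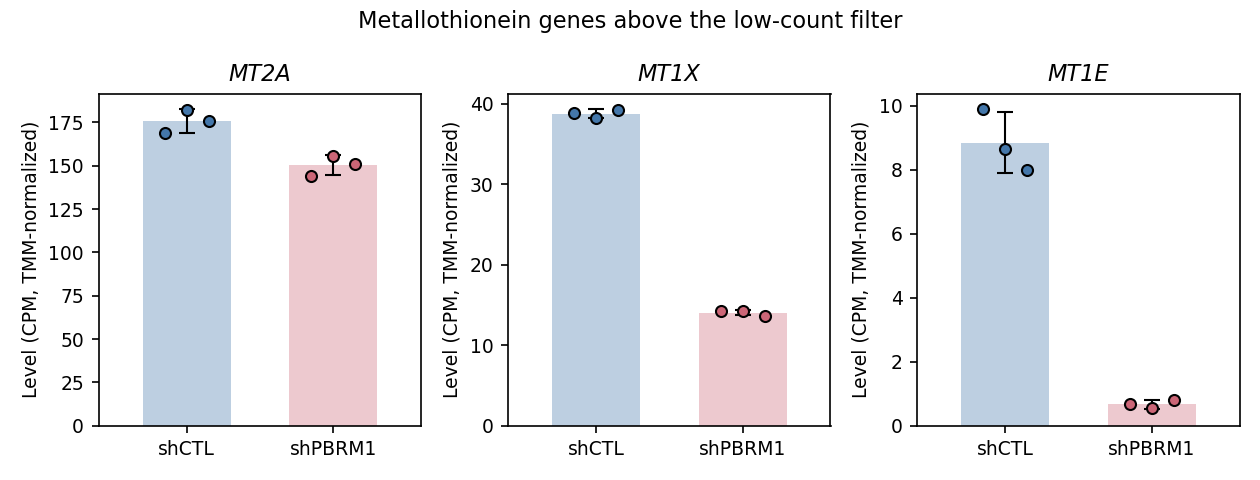
Levels of MT2A, MT1X and MT1E in CPM (TMM-normalized, linear axes from 0) in shCTL and shPBRM1 libraries. Points are the 3 libraries of each group, bars their mean and error bars the SD. The means went from 176 to 150.3 CPM for MT2A, from 38.7 to 14.0 CPM for MT1X and from 8.85 to 0.674 CPM for MT1E, with no overlap between the groups in any panel.

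The other 4 genes of the set were at or near the limit of detection in both groups. MT1F had 6, 10 and 16 counts in shCTL libraries, and 4, 2 and 8 in shPBRM1 libraries. Its summed counts, 32 against 14, gave a ratio of shPBRM1 to shCTL of 0.367 after normalization, with a 95% counting interval of 0.181 to 0.707 (exact binomial), which leaves out the spread between libraries. With no filter on low counts its log2 fold change was -1.43 and did not pass (adjusted p = 0.0909 by edgeR). Without shCTL replicate 1 it passed the filter and was called lower (log2 fold change -1.60, adjusted p = 0.0356), as it was without shPBRM1 replicate 3 (log2 fold change -1.89, adjusted p = 0.0324). Without shPBRM1 replicate 1 or 2 it was tested and not called (adjusted p = 0.113 and 0.0940). A call on MT1F thus rested on which libraries were used.

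MT1M had 2, 19 and 7 counts in shCTL and 9, 6 and 4 in shPBRM1, so that its highest and its lowest library were both controls. The ratio of its sums, 28 against 19 counts, was 0.569 with a 95% counting interval of 0.300 to 1.06, which includes no difference. MT1G had 2 counts in shCTL replicate 3 and none in the other libraries, and MT1A had 0 counts in all 6 libraries. A difference in MT1G or MT1A was not detectable at this depth.

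**Figure D2:**
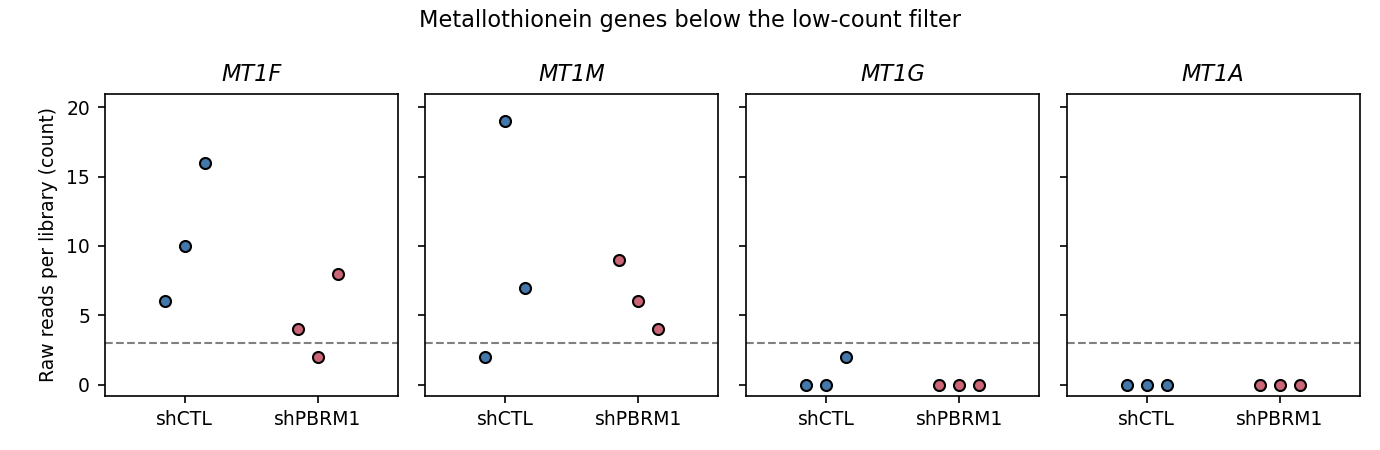
Raw reads per library (count) of the 4 metallothionein genes that did not pass the filter on low counts, MT1F, MT1M, MT1G and MT1A, in shCTL and shPBRM1 cells. Each point is a library and the dashed line is the floor of 3 counts. No library exceeds 19 counts, and MT1G and MT1A lie under the line throughout.

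Other metallothionein rows were as low. Of the 15 further family genes and pseudogenes that were listed, 13 are in the table and 0 passed the filter. MT1H had 4, 1 and 3 counts in shCTL and 4, 1 and 6 in shPBRM1. MT3 had 0, 8 and 0 counts in shCTL and 0, 0 and 2 in shPBRM1. The pseudogene MT1XP1 had 0, 0 and 3 counts in shCTL and 5, 2 and 3 in shPBRM1. MT1L had 4 counts, MT1P1 had 3 and MT1JP had 1, each in a single shCTL library. MT1B, MT1HL1, MT1DP, MT1CP, MT1P3, MT2P1 and MT4 were at 0 in all 6 libraries. With all metallothionein rows summed, the log2 fold change of the family was -0.44, as for the 7 genes alone.

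Levels of different genes were compared per length, as CPM per kb of the union of annotated exons. This union has 1773 bases for MT1X, 1299 for MT2A and 1052 for MT1E. The main transcripts have 450, 786 and 704 bases. The gaps between genes thus depend on the length used, and MT1X is lowered most by the union. On this scale MT2A was at 135 ± 5.26, MT1X at 21.9 ± 0.307 and MT1E at 8.41 ± 0.914 in shCTL cells (SD, n = 3). In shPBRM1 cells MT2A was at 115.7 ± 4.56, MT1X at 7.92 ± 0.191 and MT1E at 0.641 ± 0.131. The order of these 3 was the same in both groups, with gaps far wider than the SDs. MT1M at 0.206 ± 0.186 and MT1F at 0.121 ± 0.0427 came next in shCTL and did not differ beyond their spread. MT1G and MT1A followed at 0.0176 and 0 in shCTL and at 0 in shPBRM1.

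Since reads can be assigned to the wrong member of a family of near copies, the 7 rows were also summed. The summed counts were 8124, 11172 and 11282 in shCTL and 9554, 6649 and 10564 in shPBRM1 libraries, or 218, 229.8 and 224 CPM against 159, 171 and 166 CPM. No shPBRM1 library reached the lowest shCTL library. The family level was 224 ± 6.08 CPM in shCTL and 165 ± 5.87 CPM in shPBRM1 (SD, n = 3 each), which is 73.9% of control. In the fit across all genes the log2 fold change was -0.44 with a standard error of 0.037 (adjusted p = 5.29e-10 by edgeR). For the 3 against 3 library values, taken as unpaired, a two-sided exact permutation test gave p = 0.1, the smallest it can give. MT2A made up 43.4% of the 58.5 CPM lost, MT1X 42.2% and MT1E 14.0%. Without MT2A in the sum, the log2 fold change was -1.69 (adjusted p = 7.07e-18 by edgeR).

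The make-up of the family differed between the groups. MT2A held 77.5%, 79.4% and 78.7% of the family counts in shCTL and 90.5%, 91.2% and 91.2% in shPBRM1 libraries. Its mean share was 78.5% ± 0.931 in shCTL and 91.0% ± 0.388 in shPBRM1 (SD, n = 3 each), 12.4 percentage points higher. The share of MT1X was 17.3% ± 0.643 in shCTL and 8.50% ± 0.372 in shPBRM1. That of MT1E was 3.96% ± 0.513 in shCTL and 0.409% ± 0.0886 in shPBRM1. For each of these 3 shares the groups did not overlap, with p = 0.1 in the two-sided exact permutation test, as low as it can go (0.233 after Benjamini-Hochberg adjustment over the 7 genes).

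**Figure D3:**
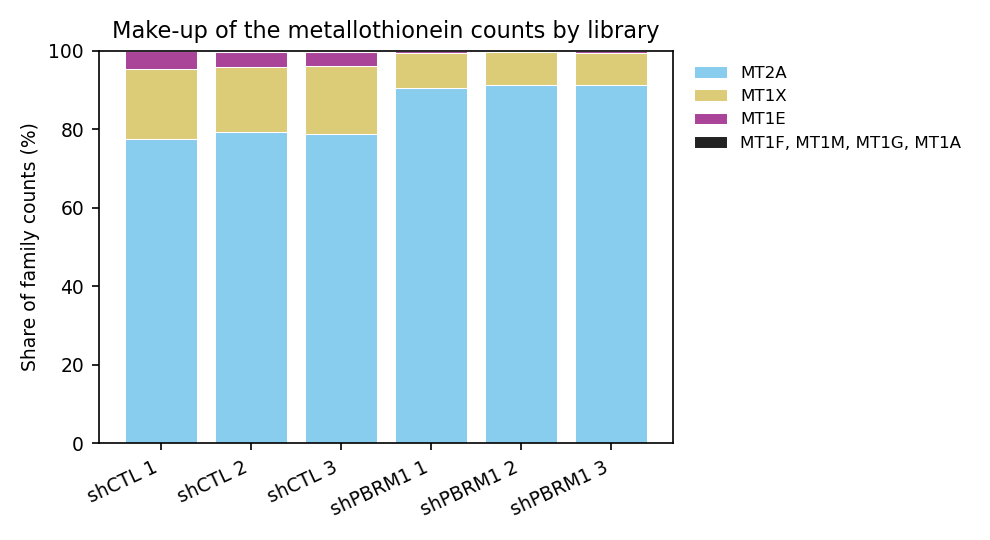
Share of the summed counts of the 7 metallothionein genes (%) held by each gene, 1 stacked bar per library. MT2A takes between 77.5% and 79.4% of each shCTL bar and between 90.5% and 91.2% of each shPBRM1 bar, and the MT1X and MT1E segments are smaller in every shPBRM1 bar.

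Ratios between the genes within a library do not depend on how the libraries are scaled. There were 5.05 ± 0.709 MT1E counts per 100 MT2A counts in shCTL and 0.450 ± 0.0975 in shPBRM1 (SD, n = 3 each), a log2 difference of -3.50 with a standard error of 0.22. MT1X counts per 100 MT2A counts went from 22.1 ± 1.06 to 9.35 ± 0.449 (log2 difference -1.24, standard error 0.056). MT1E also fell relative to MT1X, from 22.8 ± 2.55 to 4.82 ± 1.10 counts per 100 MT1X counts (log2 difference -2.26, standard error 0.21). All 3 ratios were lower in each shPBRM1 library than in each shCTL library. For each ratio the two-sided exact permutation p was again 0.1. The 3 genes thus changed by unequal amounts within the same libraries.

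The genes around the cluster were examined next, with 24 flanking genes listed on both sides. Of the 19 that passed the filter, 10 were lower, 4 were higher and 5 did not pass the test. Over all tested genes, 33.2% were lower and 31.5% higher. The median log2 fold change of the 19 was -0.22. The lower bound given for CETP below cannot move this median, since CETP lies far under it either way. Of the 10 lower genes, CETP, NLRC5, CX3CL1 and HERPUD1 were lower by over 2-fold (9.68% of all tested genes were), and these are the named genes of this list. All 4 lie beyond MT1X. HERPUD1, an endoplasmic reticulum stress gene, had a log2 fold change of -1.05. NLRC5, the transactivator of MHC class I genes, fell from 27.2 to 1.99 CPM (log2 fold change -3.76, adjusted p = 3.47e-20 by edgeR). The chemokine gene CX3CL1 had a log2 fold change of -3.15. CETP, which encodes a plasma lipid transfer protein, had 18, 26 and 35 counts in shCTL and 0, 2 and 0 in shPBRM1, and was at least 9.83-fold lower against a floor of 3 counts per library.

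The immediate neighbours of the cluster differed less from control than MT1X and MT1E did. This did not hold for MT2A, whose log2 fold change of -0.23 was smaller in size than those of BBS2, OGFOD1 and NUP93. These neighbours were named for their position after their values were seen. On the side of MT2A, BBS2 had a log2 fold change of -0.75, OGFOD1 of -0.48 and NUDT21 of -0.01, of which the last did not pass. OGFOD1 overlaps both BBS2 and NUDT21 on the opposite strand, so that the reads of these neighbours may be shared. Further out, GNAO1 was higher, with a log2 fold change of 0.89. It also overlaps annotated genes on the opposite strand. On the side of MT1X, the next gene tested was NUP93, a nucleoporin gene, at -0.47. Low and near-control values thus alternated with position. The count of 4 higher genes is not firm. It was 2 without shCTL replicate 2 and with library size only, where the calls on RSPRY1 and ARL2BP were lost. The call on ARL2BP was also lost with DESeq2, with the replicate block, with no filter or one at a mean of 50 counts, and without shCTL replicate 3, shPBRM1 replicate 1 or shPBRM1 replicate 2. That on RSPRY1 was lost without shPBRM1 replicate 3.

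**Figure D4:**
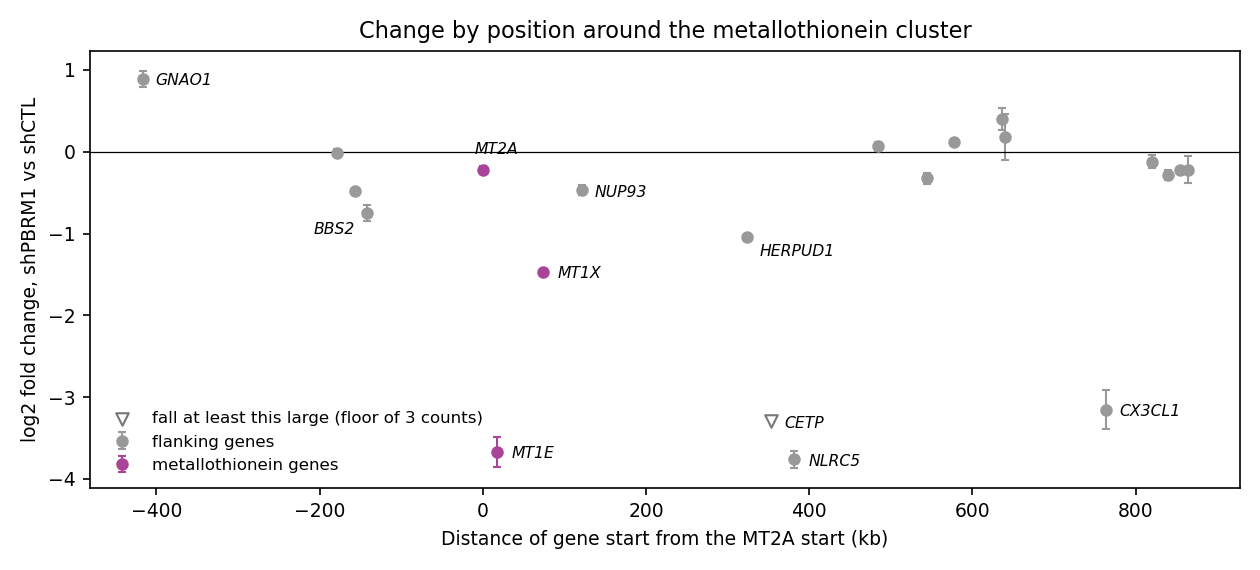
Log2 fold change of shPBRM1 against shCTL by the distance of the gene start from the MT2A start (kb), for the tested metallothionein genes and the tested flanking genes, with 1 flanking gene left out. Error bars are standard errors, and the open triangle marks CETP at its lower bound of 9.83-fold. MT1E and MT1X lie below every flanking gene shown between -416.9 and 323.8 kb, and NLRC5, CETP and CX3CL1 lie as low as MT1E or nearly so further along the chromosome.

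Genes that sense, carry and export the metals bound by metallothioneins were examined as lists. MTF1, the metal-responsive activator of the family, was at 62.4 CPM in shCTL and 57.9 CPM in shPBRM1 (log2 fold change -0.11, adjusted p = 0.0202 by edgeR). This small difference was not called by DESeq2 (adjusted p = 0.0644), nor without shCTL replicate 1 or shPBRM1 replicate 3 (by edgeR, adjusted p = 0.0965 and 0.0795). SLC30A1, the zinc exporter of the plasma membrane and another MTF1 target, stood at 55.3, 53.1 and 55.9 CPM in shCTL and at 29.6, 27.7 and 32.0 CPM in shPBRM1. It fell to 54.3% of its control level (log2 fold change -0.88, standard error 0.063, adjusted p = 7.52e-13). Its promoter window had 1 match to the metal response element core, and 24.8% of all promoters had at least 1.

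Of the 10 zinc exporter genes (SLC30A family), 7 were tested, of which 2 were higher, 2 lower and 3 did not pass, with a median log2 fold change of 0.084. The share called is near the 64.7% of all tested genes. Beside SLC30A1, SLC30A9 was lower at -0.24, while SLC30A5 and SLC30A4, which load zinc into the secretory pathway and vesicles, were higher at 0.38 and 0.28. The call on SLC30A4 was lost without shCTL replicate 2, which left 1 exporter higher. Of the 14 zinc importer genes (SLC39A family), 11 were tested, 9 were higher and 2 did not pass, against 31.5% of all tested genes called higher. By edgeR 0 importers were lower at an adjusted or unadjusted p under 0.05, and by DESeq2 0 as well, but SLC39A4 was lower with library sizes left unnormalized (log2 fold change -0.19). The median log2 fold change of the list was 0.37. SLC39A8, an importer of zinc and manganese, rose from 87.7 to 153.5 CPM (log2 fold change 0.81, adjusted p = 1.34e-15 by edgeR). SLC39A6 and SLC39A10 rose from 164 to 263 CPM and from 48.0 to 71.0 CPM. SLC39A1 had the largest fitted change, 0.90, at a low level of 0.754 CPM in shCTL and 1.37 CPM in shPBRM1, and overlaps CREB3L4 on the opposite strand.

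With MTF1, the list of metal sensing and copper handling had 12 genes, of which 5 were higher, 2 lower and 5 did not pass, with a median log2 fold change of 0.10. This share called is also near the 64.7% of all tested genes. SOD1, the copper and zinc superoxide dismutase, was higher by 0.51 on the log2 scale. The copper exporter ATP7A was higher by 0.45, COMMD1, which takes part in copper export, by 0.43 and the copper chaperone ATOX1 by 0.30. ATP7A lies over PGK1 on the same strand, and COMMD1 and ATOX1 overlap genes on the opposite strand (CCT4 and G3BP1), so that their reads may be shared. SLC30A4, SLC30A5, SLC39A8, SOD1 and NLRC5 each overlap another annotated gene as well. Of the lower genes, MTF1 lost its call under the settings given above.

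**Figure D5:**
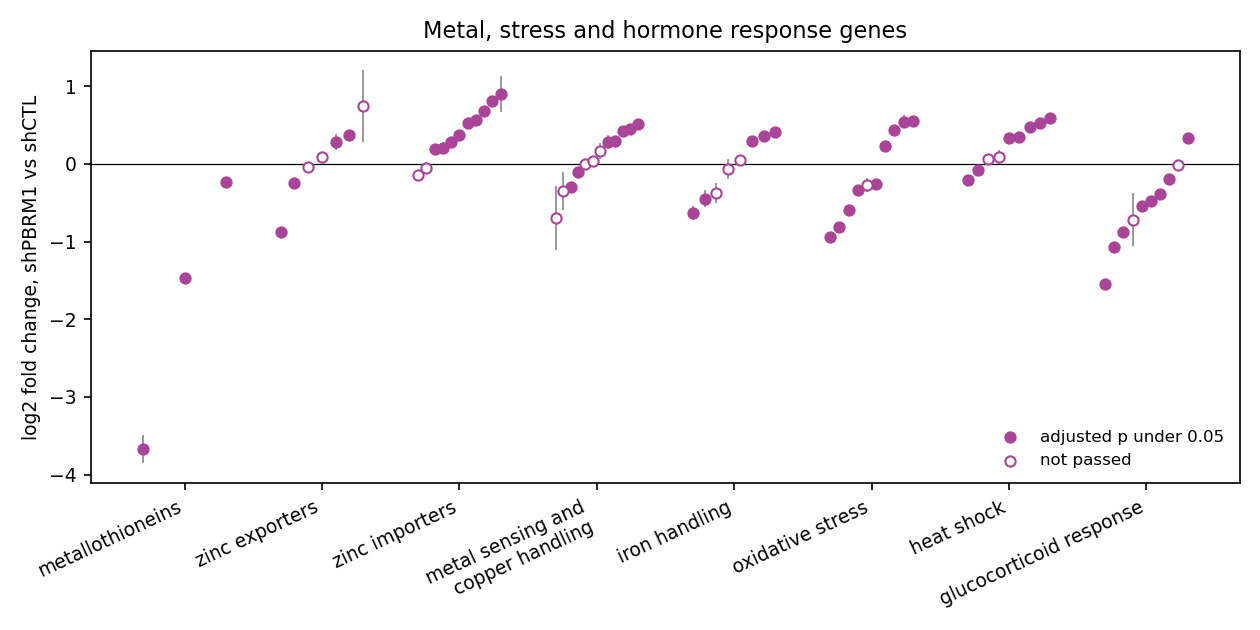
Log2 fold change of shPBRM1 against shCTL for the tested genes of 8 lists, each point a gene and each vertical line its standard error. Filled points passed the edgeR test at an adjusted p under 0.05. The 3 metallothioneins lie below 0 down to -3.67, and of the 11 zinc importers 9 are filled and above 0.

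MT2A was also compared with every other gene over the 6 libraries. Among 11538 tested genes whose mean was 100 counts or more, the 5 with the highest Pearson r to MT2A on the log2 CPM scale were GLUL (r = 0.998), RRN3 (0.997), BAHD1 (0.997), RWDD2B (0.995) and FLYWCH2 (0.995). The r of the deviations from the group means was 0.989, 0.984, 0.998, 0.969 and 0.967 for these genes. The log2 fold change was -1.16 for GLUL, glutamine synthetase, and between -0.35 and -0.26 for the other 4. With 6 libraries, 460 genes had an r above 0.95, and all values share the same library sizes and the same difference between the groups, so that these genes are a description only.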

How the data were processed

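RNA-seq libraries of 3 shCTL and 3 shPBRM1 cultures of BT-549 cells were prepared with a stranded mRNA kit. What the authors deposited are raw counts for each gene symbol, not normalized. The submitters' processing notes name CASAVA 1.8.2, STAR 2.7.9a, featureCounts, DESeq2 1.24.0 and the build GRCh38.p7. The annotation and the strand setting are not given in the sources used here. The sample titles gave the groups and replicate numbers. Of the 37887 rows, 14 show a date where a symbol should stand and were not named. All columns of values were matched to a sample by their header.

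The counts were normalized by TMM, and 15450 genes kept by filterByExpr were tested with the quasi-likelihood F-test of edgeR 4.0.16 in R 4.3.3, with Benjamini-Hochberg adjustment over these genes. Every adjusted p is from this test unless DESeq2 1.42.0 is named. Genes were counted at an adjusted p under 0.05, with and without a fold change over 2. Standard errors were computed from log2 CPM (2 counts added) over the replicates of each group. Family shares and ratios were compared by exact permutation tests that took the libraries as unpaired. The tests were checked on simulated counts. Total counts ran from 36429395 to 65096297 per library. Replicates differed by more than sampling noise (chi-square per degree of freedom 4.66 to 22.6).

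Deviations from the group means correlated at 0.734, 0.593 and 0.419 between libraries numbered 1, 2 and 3, over 5622 genes with a mean log2 CPM above 5, and between -0.671 and 0.464 for different numbers. The lowest of the same-numbered values was below the highest for different numbers, so that a pairing by number remains uncertain. The main fit left it out, and a replicate block was fitted as an alternative. Further alternatives were DESeq2, RLE factors, library size only, no filter, a mean of at least 50 counts, each library left out, glmTreat, no fold minimum and an adjusted p under 0.001.

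Positions, overlaps and coding sequences are from GENCODE v29, and all 137 listed genes found in the table had a position. Promoters are from RefSeq (GRCh38.p14). The members and the gene lists were chosen with earlier results of these data known. The genes named are the 7 members, the other metallothionein rows, PBRM1, MTF1, SLC30A1, up to 4 genes of each other list with an adjusted p under 0.05 and the largest absolute log2 fold changes, and the 5 genes most like MT2A. The values of 1 flanking gene are not given. Genes named beyond this rule are the cell markers, those said to be named for position, and those whose call a setting changed.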

Additional observations from a re-analysis of the deposited data

How the results depend on the processing

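The log2 fold changes of PBRM1, MT2A, MT1E, MT1X and the family sum kept their direction and their side of the threshold under each alternative run. The differences in the shares of family counts, whose exact test cannot pass the threshold, kept their direction and moved by less than 1 SD. With libraries paired by number, an exact sign-flip test of the shares of MT2A, MT1X and MT1E gave p = 0.25 each. No smaller p is possible with 3 pairs. With the replicate block, which pairs libraries by number, the log2 fold change was -3.68 for MT1E, -1.47 for MT1X, -0.22 for MT2A and -0.44 for the family sum. The block changed no call on a member. Among the listed genes it removed the call on ARL2BP and added FTH1 and HSPB1. Leaving out 1 library at a time gave -3.84 to -3.56 for MT1E, -1.48 to -1.44 for MT1X, -0.25 to -0.19 for MT2A and -0.46 to -0.41 for the family sum. Library size only moved the median of all tested genes to -0.056, and MT2A was then at -0.28. The number of members called lower was 2, or 3 with MT1F without shCTL replicate 1 or shPBRM1 replicate 3, and 3 with MT2A when no fold minimum was used. For single lists, 181 alternative counts were within 1.5 times the main count and 11 were not. Depth limits what can be said of MT1F, MT1M, MT1G and MT1A, whose highest count was 19.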

Other observations

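Further lists cover signals known to reach metallothionein genes. No list was tested as a set. Over all tested genes, 33.2% were called lower and 31.5% higher, with a median log2 fold change of -0.0080. Of 10 glucocorticoid response genes, all tested, 7 were lower, 1 was higher and 2 did not pass, with a median log2 fold change of -0.51. TSC22D3, which encodes the leucine zipper protein GILZ, fell from 25.01 ± 1.33 to 8.56 ± 0.378 CPM (SD, n = 3 each), a log2 fold change of -1.55. ERRFI1, a feedback inhibitor of EGFR, went from 463 to 219.9 CPM (log2 fold change -1.07). The clock gene PER1 had a log2 fold change of -0.88 and CEBPD, a transcription factor gene, of -0.54. TSC22D3 and ERRFI1 were the 2 genes of this list lower by over 2-fold. TSC22D3 overlaps NCBP2L on the opposite strand, and ERRFI1 and PER1 each overlap another annotated gene.

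Of 10 oxidative stress genes, all tested, 5 were lower, 4 were higher and 1 did not pass, with a median of -0.27. HMOX1, heme oxygenase 1, fell from 134 ± 4.83 to 69.9 ± 2.65 CPM (log2 fold change -0.94, standard error 0.044). NFE2L2, which encodes the transcription factor NRF2, had a log2 fold change of -0.81, although it overlaps AGPS on the opposite strand. GCLC, the catalytic subunit of glutathione synthesis, was lower at -0.60, while the cystine transporter gene SLC7A11 was higher at 0.55. Both of these genes overlap an antisense transcript. The share of the list called higher or lower stands against 64.7% of all tested genes.

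Of 11 heat shock genes, 9 were tested, of which 5 were higher, 2 lower and 2 did not pass, with a median of 0.33, against 31.5% higher and 33.2% lower over all tested genes. HSPE1 and HSPD1, the mitochondrial chaperonins, had log2 fold changes of 0.59 and 0.35, DNAJB1, which overlaps TECR on the opposite strand, of 0.53 and HSPH1 of 0.48. HSPE1 and HSPD1 overlap each other on opposite strands and have processed pseudogenes, so that their reads are less certain. One of the 2 lower calls, that on HSP90AA1, was lost with no filter on low counts, without shCTL replicate 2, without shCTL replicate 3 or without shPBRM1 replicate 1, which left 1 lower. Of 10 iron handling genes, 8 were tested, of which 3 were higher, 2 lower and 3 did not pass, with a median of -0.0080, a share called near the 64.7% of all tested genes. The ferritin light chain gene FTL, which also has processed pseudogenes, was at a log2 fold change of -0.63 and the ferrireductase gene STEAP3, which overlaps STEAP3-AS1, at -0.45. SLC11A2, which encodes the iron importer DMT1, was at 0.41 and the transferrin receptor gene TFRC at 0.36.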
